A study of Rattus norvegicus with 14 samples.

Results

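Rgs10 and 9 other regulator of G protein signalling (RGS) genes, Rgs2, Rgs3, Rgs4, Rgs7, Rgs14, Rgs16, Rgs17, Rgs18 and Rgs19, were followed through 14 RNA-seq libraries of rat dorsal root ganglia. They were taken by gene symbol from the deposited tables, in which each had 1 row, and make up 10 of the 30562 genes listed. All 10 passed the filter on low counts. The set was chosen by a measured value, the difference of Rgs10 between the operated and unoperated sides in log2 CPM in these same libraries, so that difference is given below as a description, without a test. The other genes were added because they belong to the same family.

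The ganglia, L2-L5, came from 7 Male WT rats. On one hindlimb an Extensor digitorum longus muscle had been grafted to the saphenous nerve, and the ganglia of that limb gave the surgical library, while those of the other, unoperated hindlimb of the same rat gave the control library. The surgical and control libraries at 6 weeks came from rats A, B and E (n = 3 each), and those at 8 weeks from rats C, D, G and H (n = 4 each). No rat without an operation is among them, so the control library is the other side of an operated animal.

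RGS proteins end signals that pass through G protein-coupled receptors. When such a receptor is activated, its G alpha subunit binds GTP and parts from the beta and gamma subunits, and an RGS protein speeds the hydrolysis of that GTP, which stops the signal. In sensory neurons the opioid, adrenergic and other receptors that tune transmitter release and excitability work through G proteins. The family falls into subfamilies, and the genes here stand for the R12 group (Rgs10, Rgs14), the R4 group (Rgs2, Rgs3, Rgs4, Rgs16, Rgs18), the R7 group (Rgs7) and the RZ group (Rgs17, Rgs19).

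Library totals ran from 18489118 to 28237574 estimated counts. Neuron markers were present in all 14 libraries, with none of the 14 genes at 0, but their summed level was uneven: 1788 to 15863 TPM, a share of the transcripts in a library corrected for their length, in surgical and 2764 to 16978 TPM in control libraries at 6 weeks, and 9518 to 26295 TPM in surgical and 12871 to 24741 TPM in control libraries at 8 weeks. The surgical library of rat A and the control library of rat B held the least. Skeletal muscle markers summed to 38458 TPM in the surgical library of rat C, 1695 TPM in the surgical library of rat E and 6946 TPM in the control library of rat H, against 68.4 to 313 TPM in the other 11 libraries. Spinal cord markers reached 976 TPM on the surgical side of rat B and at most 27.9 TPM elsewhere. Ganglia are mixtures, so fewer cells of a type and less RNA per cell cannot be told apart here.

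TPM also moved as a whole between libraries. Red blood cell markers took between 26668 and 163844 TPM of a library. Medians were taken over the 13531 genes with at least 20 counts in all 14 libraries. The median surgical minus control difference in log2 TPM was 0.72 in rat B and -0.44 in rat C. On the control side the same median was 0.59 higher at 8 than at 6 weeks. Levels below are in TPM, and differences are in log2 CPM, counts relative to the library total, after TMM scaling. With that scaling the median fitted difference over all genes tested lay between -0.06 and 0.05 in the 6 comparisons.

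Rgs4 had the highest mean level, 252 ± 168 TPM (SD, n = 14), ahead of Rgs10 at 209 ± 78.6 TPM and Rgs3 at 97.8 ± 40.7 TPM. Rgs2 averaged 30.7 ± 7.73 TPM, Rgs7 26.2 ± 14.95 TPM, Rgs19 18.7 ± 4.88 TPM and Rgs18 18.6 ± 12.4 TPM. Rgs14, Rgs17 and Rgs16 were the lowest, at 6.76 ± 2.87, 5.85 ± 2.53 and 3.64 ± 1.38 TPM (SD, n = 14 each). Only some neighbours in this order were separated within libraries: Rgs10 lay above Rgs3, and Rgs18 above Rgs14, in 14 of 14 libraries, and Rgs3 above Rgs2 in 13 of 14. Rgs4 lay above Rgs10 in 7 of 14, which were 7 of the 8 libraries at 8 weeks and 0 of the 6 at 6 weeks. The remaining neighbours changed places in at least 4 libraries. The spread over libraries was smallest for Rgs2, whose highest TPM was 2.35 times its lowest, and largest for Rgs7, at 33.6 times.

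**Figure D1:**
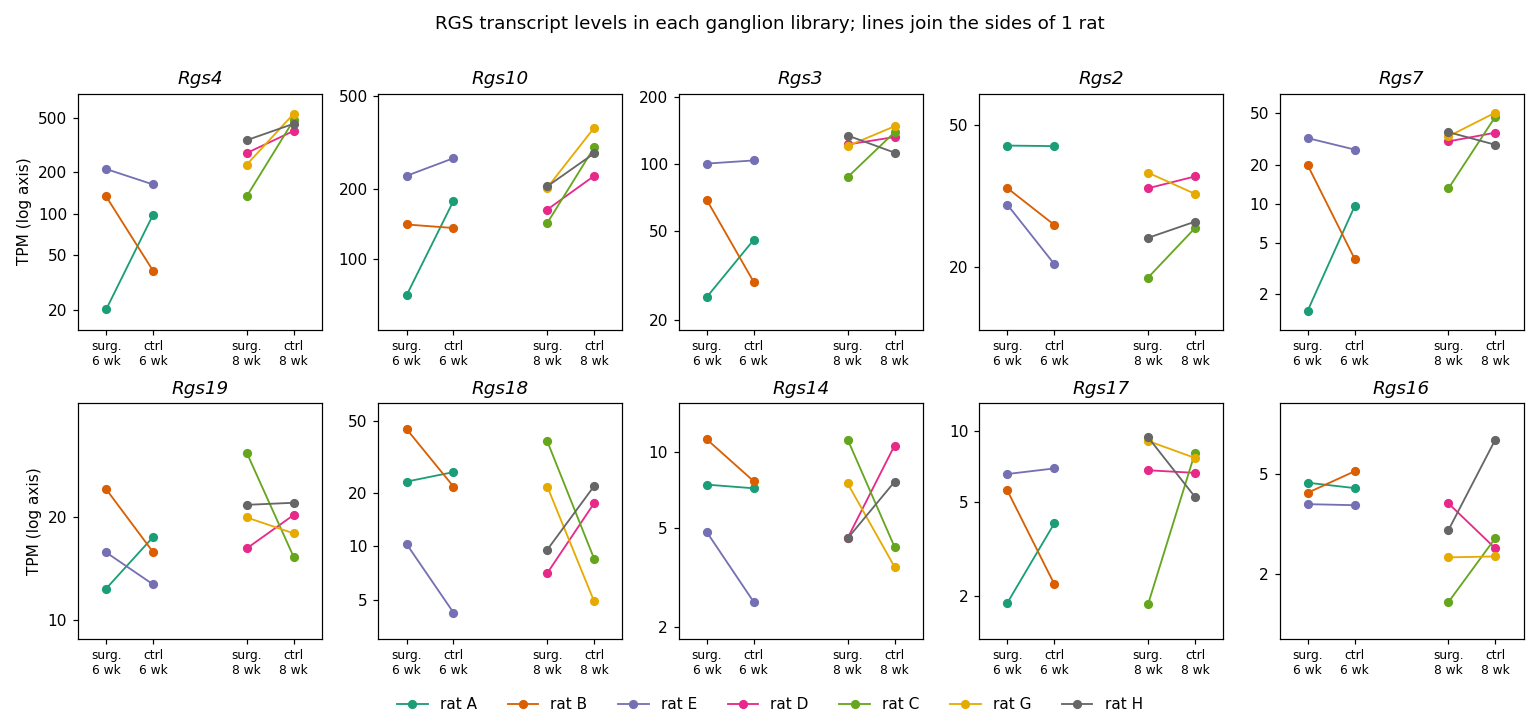
Level of each RGS gene in TPM (log axes, scaled per gene) in the 14 libraries, surgical left of control at each time, with lines joining the sides of 1 rat. Rgs10 lies lower on the surgical side in 6 of 7 rats on this scale (in 7 of 7 by scaled counts), whereas the lines of the other genes run in both directions.

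Rgs10 is a small member of the R12 group, little more than the RGS domain itself, that acts on G alpha i subunits and is best known from microglia and neurons of mice. The 250 bases before its start site are shown because Rgs10 is the gene around which the set was built. They also belong to a promoter window that is among the most GC-rich of the rat promoter windows compared below. They come from RefSeq, build GRCr8, chr1:192418078-192418327, minus strand. Capitals mark matches to GGGCGG, the GC box, on either strand.
Rgs10: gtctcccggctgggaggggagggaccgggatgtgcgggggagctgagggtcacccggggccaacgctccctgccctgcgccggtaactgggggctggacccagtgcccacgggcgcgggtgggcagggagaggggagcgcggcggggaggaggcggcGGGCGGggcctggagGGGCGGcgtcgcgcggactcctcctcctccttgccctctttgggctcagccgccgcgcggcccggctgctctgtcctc
With the 50 bases after the start, this window was 76.3% G or C, above 97.6% of the 33469 rat promoter windows of the same length, whose median was 51.7%. It held 2 GC boxes, beginning at positions -93 and -78 from the start site, and 33.1% of all windows held at least 1. The start used by the table lies 4563 bases inside the annotated gene, so other starts exist and are not shown.

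At 6 weeks Rgs10 stood at 70.1, 141 and 228 TPM in the surgical libraries of rats A, B and E, against 178, 136 and 271 TPM in their control libraries. At 8 weeks it stood at 143, 163, 203 and 206 TPM in the surgical libraries of rats C, D, G and H, against 302, 228, 366 and 285 TPM in their control libraries. At 6 weeks the sides overlapped, with rat B nearly level. At 8 weeks all 4 surgical libraries lay below all 4 control libraries, as they did for 1.39% of all genes tested by counts and for 1.61% in TPM; this is again the contrast that chose the gene, and nothing is read from it.

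Group means were 146 ± 79.1 TPM in surgical and 195 ± 69.2 TPM in control libraries at 6 weeks (SD, n = 3 each), and 179 ± 30.6 TPM in surgical and 295 ± 57.0 TPM in control libraries at 8 weeks (SD, n = 4 each). By scaled counts Rgs10 was lower on the surgical side in 7 of 7 rats, by between 0.35 log2 units in rat E and 1.27 in rat A. Of all 17035 genes tested, 127 (0.746%) were lower in all 7 rats and 79 (0.464%) higher in all 7; since this contrast chose Rgs10, nothing is read from its place among them. In unscaled TPM the direction held in 6 of 7 rats, and relative to the median gene of each rat it held in 7 of 7, with log2 TPM differences of -1.20, -0.67 and -0.33 in rats A, B and E and -0.64, -0.36, -0.67 and -0.60 in rats C, D, G and H.

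The edgeR fit with the rat as a block gave a surgical minus control difference of -0.65 (SE 0.13) in log2 CPM over both times, -0.73 (SE 0.21) at 6 weeks and -0.58 (SE 0.18) at 8 weeks. Rat A carried the largest share of it: without that rat the difference over both times was -0.54 (SE 0.11) and that at 6 weeks -0.47 (SE 0.19). With rats B, C and H left out, B having the highest spinal cord marker sum and C and H the highest muscle marker sums, it was -0.68 (SE 0.18); rat E, with 1695 TPM of muscle markers in its surgical library, was kept. With the level of the neuron markers as a covariate it was -0.62 (SE 0.10). Since this contrast chose Rgs10, these values and their standard errors are a description. Nothing is read from their size or from how they held in the refits.

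No difference in Rgs10 between the times passed the test. The 8 week difference minus the 6 week difference was 0.15 (SE 0.27; edgeR adjusted p = 1). Between the times Rgs10 differed by 0.10 (SE 0.27; edgeR adjusted p = 0.908) on the surgical side and by 0.03 (SE 0.18; edgeR adjusted p = 0.924) on the control side, 8 minus 6 weeks. Of the 10 genes it had the smallest fitted time difference on both sides.

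**Figure D2:**
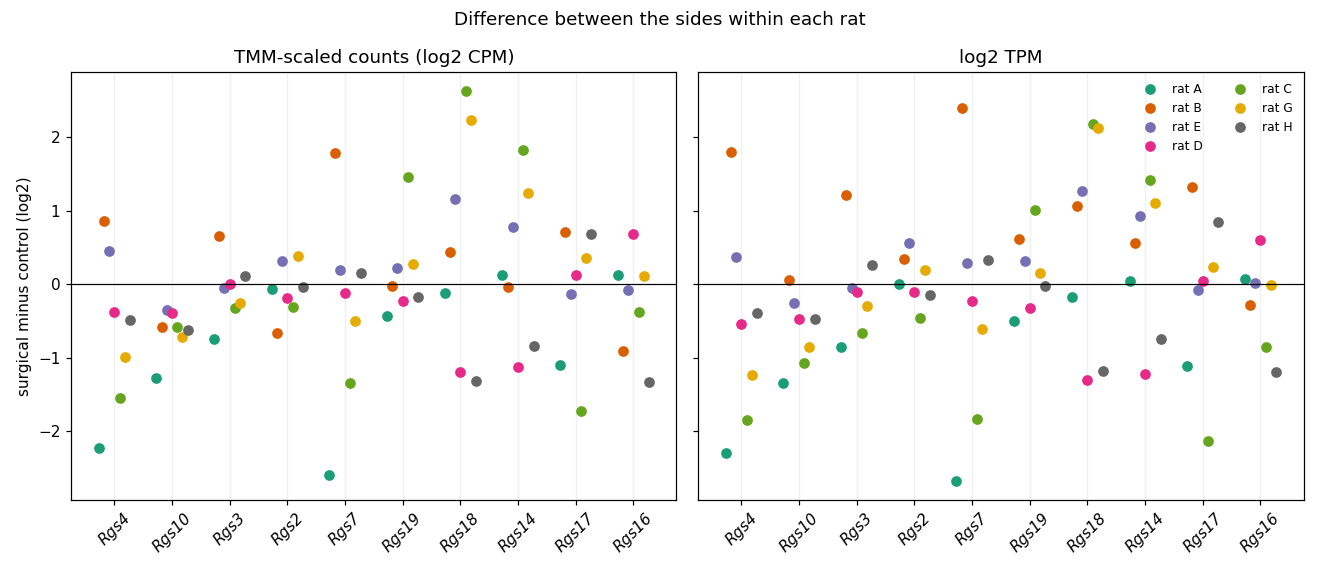
Surgical minus control difference of each RGS gene within each of the 7 rats, in log2 CPM after TMM scaling (left) and in log2 TPM (right); each point is 1 rat and the line marks no difference. All 7 Rgs10 points lie below the line by counts and 6 of 7 by TPM, while each other gene has points on both sides of it.

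In the side comparisons edgeR called 0 of 17035 genes (0%) at an adjusted p under 0.05. None of the 9 RGS genes other than Rgs10 passed. Unadjusted p under 0.05 was reached by 412 genes over both times, 546 at 6 weeks and 180 at 8 weeks, and by none of the 9 RGS genes other than Rgs10, for which no test of this contrast is given. DESeq2 called 6, 44 and 4 genes in the same comparisons, none of them among those 9 RGS genes. Its result for Rgs10 is not given, since this contrast chose the gene. Over both times 7 of the 10 fitted differences were negative, that of Rgs10 among them, with a median of -0.11. Over all genes tested the median was 0.00 and 50.1% of the differences were positive. Since the side difference of Rgs10 chose the set, nothing is read from this count. The difference between the times' side effects was called for 0 genes as well (0% of 17035; 252 at an unadjusted p under 0.05, none of them an RGS gene here; DESeq2 called 5).

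Rgs4, Rgs3 and Rgs7 formed one pattern across libraries. Rgs4 acts on G alpha i and G alpha q and is a well-known brake on opioid and muscarinic receptors in neurons. Rgs3 acts on the same subunits, and Rgs7 works as a complex with the G beta 5 subunit. Rgs4 stood at 20.05, 134 and 212 TPM in the surgical libraries of rats A, B and E, against 98.2, 38.4 and 163 TPM in their control libraries. At 8 weeks it stood at 134, 277, 228 and 344 TPM in the surgical libraries of rats C, D, G and H, against 482, 402, 536 and 453 TPM in their control libraries. The sides overlapped at 6 weeks, and at 8 weeks every surgical library lay below every control library, the arrangement of 1.39% of all genes by counts and 1.61% in TPM. Of the 10 RGS genes it was that of Rgs4 and Rgs10.

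The Rgs4 difference over both times was -0.62 (SE 0.37; edgeR adjusted p = 1), nearly as large as that of Rgs10 but with a wider error. It was -0.24 (SE 0.61) at 6 weeks and -0.85 (SE 0.49) at 8 weeks. Per rat it ran from -2.23 in rat A to 0.85 in rat B, and 5 of 7 rats had the lower level on the surgical side. Without rat A the 6 week value was 0.65, on the other side of 0.

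The promoter of Rgs4 is shown as the contrast to that of Rgs10. It is from RefSeq, build GRCr8, chr13:84475885-84476134, minus strand, and capitals mark TATAAA (the TATA box), CCAAT (the CCAAT box) and TGACG (a part of the cAMP response element), on either strand.
Rgs4: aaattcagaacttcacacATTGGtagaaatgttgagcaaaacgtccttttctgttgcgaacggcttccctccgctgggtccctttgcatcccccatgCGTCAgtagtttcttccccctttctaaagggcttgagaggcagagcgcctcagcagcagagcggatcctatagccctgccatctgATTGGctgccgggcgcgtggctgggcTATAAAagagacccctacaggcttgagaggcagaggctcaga
It held TATAAA at -42, CCAAT at -232 and -68 on the opposite strand, TGACG at -153 on the opposite strand, and no GC box. Of all windows 14.2% held TATAAA, 37.5% CCAAT and 21.2% TGACG. The window was 52.7% G or C, near the median of all windows. The letters are a description of the sequence, and no binding was measured.

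Rgs3 stood at 25.5, 68.9 and 101 TPM in the surgical libraries of rats A, B and E, against 45.9, 29.6 and 104 TPM in their control libraries. At 8 weeks the levels were 87.4, 122, 120.4 and 134 TPM in the surgical libraries of rats C, D, G and H, against 139, 132, 148 and 113 TPM in their control libraries. The sides overlapped at both times, and rats A and B held the lowest levels. The difference over both times was -0.09 (SE 0.16).

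Rgs7 stood at 1.503, 19.8 and 32.1 TPM in the surgical libraries of rats A, B and E, against 9.59, 3.77 and 26.2 TPM in their control libraries. At 8 weeks the levels were 13.1, 30.3, 33.1 and 35.7 TPM in the surgical libraries of rats C, D, G and H, against 47.0, 35.4, 50.5 and 28.5 TPM in their control libraries. Rats A and B moved in opposite directions, by -2.60 and 1.78 in log2 CPM, and the difference over both times was -0.33 (SE 0.45). The lowest library, the surgical one of rat A, rested on 70 counts.

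Several marker lists moved with these 3 genes. The side difference had the sign of the neuron marker difference in 6 of 7 rats for Rgs3 and Rgs7 and in 5 of 7 for Rgs4. It had the sign of the satellite glia markers in 7 of 7 rats for Rgs3, 5 of 7 for Rgs7 and 4 of 7 for Rgs4, and that of the platelet markers in 5 of 7 for Rgs4. In rat A the mean log2 CPM of the neuron markers was 6.32 on the surgical and 8.11 on the control side, and in rat B 8.36 on the surgical and 7.09 on the control side. Rgs10, chosen by this contrast, was lower on the surgical side in 7 of 7 rats. Its sharing of the neuron marker sign in 5 of 7 therefore only counts the rats in which those markers were lower there. Rats B and H were the exceptions for Rgs10, lower by 0.58 and 0.62 in log2 CPM on the surgical side, where the neuron markers were higher. How much of any of these differences goes with the share of any cell type was not tested beyond the covariate fit above.

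**Figure D3:**
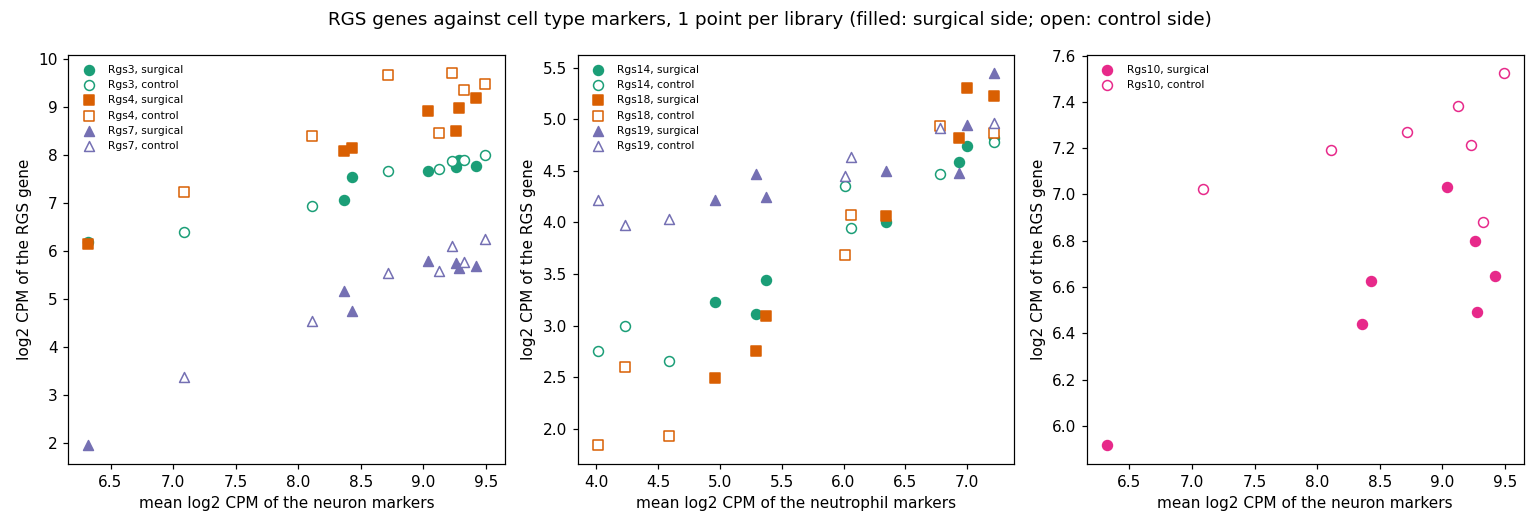
Level of RGS genes in log2 CPM against the mean log2 CPM of marker lists, with 1 point per library (filled for surgical, open for control). Rgs3, Rgs4 and Rgs7 are lowest where neuron markers are lowest (left), and Rgs14 and Rgs18 are highest where neutrophil markers are highest (middle). The right panel shows Rgs10 against neuron markers. Nothing is read from its sides, since that contrast chose the gene.

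Rgs14, Rgs18 and Rgs19 formed a second pattern. Rgs14, in the R12 group with Rgs10, has besides its RGS domain Ras-binding domains and a motif that holds G alpha i in its GDP form. Rgs18 is known from platelets and other blood cells, and Rgs19, also called GAIP, acts on G alpha i and z. Rgs18 stood at 23.0, 45.3 and 10.3 TPM in the surgical libraries of rats A, B and E, against 26.0, 21.6 and 4.28 TPM in their control libraries. The 8 week levels were 38.7, 7.10, 21.6 and 9.59 TPM in the surgical libraries of rats C, D, G and H, against 8.53, 17.5, 4.93 and 21.8 TPM in their control libraries. The sides overlapped at both times, and the rats went in opposite directions, from 2.62 log2 units in rat C to -1.32 in rat H.

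Rgs14 followed the same rats, at 7.43, 11.3 and 4.79 TPM in the surgical libraries of rats A, B and E, against 7.18, 7.65 and 2.52 TPM in their control libraries. The 8 week levels were 11.2, 4.55, 7.51 and 4.53 TPM in the surgical libraries of rats C, D, G and H, against 4.19, 10.6, 3.49 and 7.63 TPM in their control libraries. The fitted difference over both times was 0.53 (SE 0.54) for Rgs18 and 0.28 (SE 0.37) for Rgs14, each within its standard error. Rgs19 differed less between libraries, with 12.3 to 30.7 TPM on the surgical and 12.7 to 22.0 TPM on the control side, and its difference was 0.15 (SE 0.22). Its highest library was the surgical one of rat C, and without that rat the difference was -0.06.

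Markers of blood cells and of muscle moved with these genes. The 5 libraries highest in neutrophil markers were also the 5 highest in Rgs14 and in Rgs18, and 4 of the 5 highest in Rgs19. The same 5 were highest in macrophage, in T, B and NK cell and in red blood cell markers. Rgs14 had the sign of the neutrophil marker difference in 7 of 7 rats, Rgs19 in 6 of 7 and Rgs18 in 5 of 7, while Rgs18 had the sign of the platelet marker difference in 7 of 7. The sign of the skeletal muscle markers was that of Rgs14 in 7 of 7 rats, of Rgs19 in 6 of 7 and of Rgs18 in 5 of 7. Rgs2 and Rgs16 each shared 4 of their 5 highest libraries with the neutrophil markers too, and Rgs2 had their sign in 5 of 7 rats. Neutrophil markers summed to 8140 to 24898.5 TPM in surgical and 4115 to 24174 TPM in control libraries at 6 weeks, and to 3211 to 18929.6 TPM in surgical and 2764 to 14646 TPM in control libraries at 8 weeks. Of the 9 markers, Ltf was at 0 in 4 libraries and the others were present throughout. Platelet markers summed to 40.9 to 571 TPM in surgical and 51.3 to 373 TPM in control libraries, and of these 9 genes Gp1bb was at 0 in 2 libraries. The part of these cells in the differences was not tested.

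Rgs18 has the least GC-rich promoter of the set, shown for that reason. It is from RefSeq, build GRCr8, chr13:59066343-59066592, minus strand, and has no capitals because none of the motifs searched was found in it.
Rgs18: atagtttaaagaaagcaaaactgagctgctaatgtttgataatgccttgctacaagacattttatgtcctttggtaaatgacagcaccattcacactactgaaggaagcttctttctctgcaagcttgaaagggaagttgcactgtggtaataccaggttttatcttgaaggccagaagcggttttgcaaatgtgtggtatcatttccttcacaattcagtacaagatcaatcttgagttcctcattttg
The window was 39.7% G or C, above 11.3% of all windows. Besides the GC box, TATA box, CCAAT box and TGACG named above, the search on both strands covered the whole cAMP response element TGACGTCA (which contains TGACG), found in 1.83% of all windows, the E box CACGTG, found in 6.42%, and the AP-1 site TGACTCA, found in 4.63%. Rgs14 held none of them either, and Rgs19 held CACGTG only. The Rgs2 window held the most GC boxes, 4, and that of Rgs7 was the most GC-rich of the set at 77.3%.

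Rgs2, Rgs16 and Rgs17 are the other 3 genes. Rgs2, known for acting on G alpha q and for its quick induction in stimulated cells, stood at 43.8, 33.3 and 29.9 TPM in the surgical libraries of rats A, B and E, against 43.7, 26.2 and 20.3 TPM in their control libraries. The 8 week values were 18.6, 33.2, 36.8 and 24.1 TPM in the surgical libraries of rats C, D, G and H, against 25.7, 35.9, 32.0 and 26.8 TPM in their control libraries. The sides overlapped at both times, and the difference over both times was -0.08 (SE 0.14) by counts, and 0.05 ± 0.34 (SD, n = 7 rats) as the mean difference in log2 TPM.

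Rgs16, an R4 protein that acts on G alpha i and q, stood at 4.61, 4.20 and 3.78 TPM in the surgical libraries of rats A, B and E, against 4.38, 5.12 and 3.75 TPM in their control libraries. The 8 week values were 1.54, 3.81, 2.32 and 2.98 TPM in the surgical libraries of rats C, D, G and H, against 2.77, 2.52, 2.34 and 6.85 TPM in their control libraries. The control library of rat H stood apart, and the difference over both times was -0.26 (SE 0.25). Rgs17, an RZ protein of the nervous system that acts on G alpha i and z, ranged from 1.84 to 9.39 TPM on the surgical and from 2.24 to 8.06 TPM on the control side. Its difference was -0.13 (SE 0.32), with 4 of 7 rats higher on the surgical side. It had the sign of the neuron marker difference in 5 of 7 rats and that of the satellite glia markers in 6 of 7.

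Between 6 and 8 weeks the rats differ, so this comparison is between animals. On the control side edgeR called 25 of 16346 genes (0.153%), 3 higher (0.0184%) and 22 lower (0.135%) at 8 weeks, and no RGS gene of the set; 5108 genes, and 4 of the 10, had an unadjusted p under 0.05. The 4 were Rgs4, Rgs2, Rgs3 and Rgs7. Rgs4 differed by 1.43 (SE 0.31; edgeR adjusted p = 0.0849), with 402 to 536 TPM at 8 weeks against 38.4 to 163 TPM at 6 weeks. Its groups did not overlap by either scale, as was the case in that direction for 11.8% of all genes tested by counts and for 35% in TPM, where the median gene was itself higher at 8 weeks.

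Rgs7 differed by 1.16 (SE 0.47; edgeR adjusted p = 0.15) and Rgs3 by 0.74 (SE 0.30; edgeR adjusted p = 0.147). Their control groups overlapped by counts and were apart in TPM, as were those of the 35% of all genes just given. With the neuron marker level as a covariate the values were 1.02 for Rgs4, 0.28 for Rgs7 and 0.18 for Rgs3. The neuron markers themselves were lower in both control libraries of rats A and B, at 8.11 and 7.09 in mean log2 CPM, than in any control library at 8 weeks, the lowest of which had 8.72. Without rat E the same comparison called 6388 genes (38.3%), and 4 of the 10 RGS genes, Rgs2, Rgs3, Rgs4 and Rgs7, a share near that of all genes; DESeq2 called 19.2% of all genes, and 2 of the 10, Rgs4 and Rgs2; without any one of the other rats edgeR called 0 or 1 genes.

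**Figure D4:**
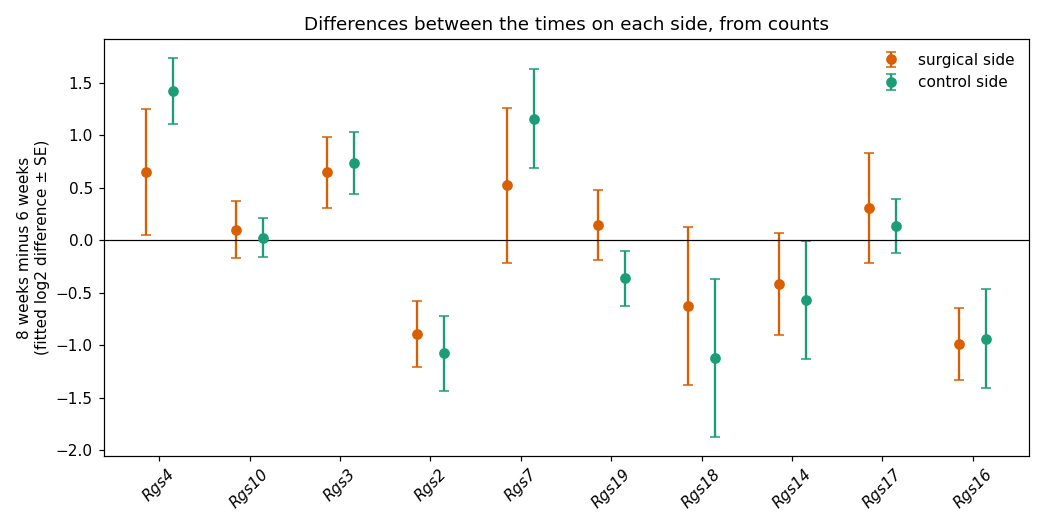
Fitted log2 difference between 8 and 6 weeks, with its standard error, for each RGS gene on the surgical side (orange) and the control side (green), from counts. On both sides Rgs4, Rgs3 and Rgs7 lie above 0, Rgs2, Rgs16, Rgs18 and Rgs14 below it and Rgs10 near it; with neuron markers as a covariate Rgs10, Rgs14, Rgs17 and Rgs18 change sign on both sides, Rgs4 and Rgs7 on the surgical side and Rgs19 on the control side. None passed at an adjusted p under 0.05, and by TPM the control side value of Rgs2 is near 0.

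Rgs2 differed by -1.08 (SE 0.36; edgeR adjusted p = 0.122) on the control side by counts, whereas in log2 TPM its mean difference was 0.06, or -0.53 relative to the median gene. The ratio of counts to TPM shows where the scales part. Divided by the library's median over genes, which makes it a relative transcript length, it ran from 0.317 to 0.570 for Rgs2, a range of 1.80 times, with the longest in the control library of rat B. For Rgs4 it ran from 0.742 to 1.13, a range of 1.52 times, with the longest values in both libraries of rat A and the control library of rat B. Each other gene stayed within 1.17 times, and Rgs10 within 1.03 times. The mean transcript length implied by the tables thus differed between libraries for Rgs2 and Rgs4; TPM divide by it and counts do not.

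On the surgical side edgeR called 0 of 16606 genes (0%), with 1089 at an unadjusted p under 0.05; DESeq2 called 8. Rgs16 differed by -0.99 (SE 0.34; edgeR adjusted p = 0.671) and Rgs2 by -0.89 (SE 0.32; edgeR adjusted p = 0.671), and these were the 2 of the 10 with an unadjusted p under 0.05. Rgs16 had the same direction on the control side, -0.94 (SE 0.47; edgeR adjusted p = 0.199). Its surgical groups were apart by counts, as were those of 5.16% of all genes in that direction, and overlapped in TPM. With the neuron marker level as a covariate Rgs16 differed by -0.69 (SE 0.40) on the surgical and -0.11 (SE 0.40) on the control side. For Rgs2 these values were -0.37 (SE 0.30) and -0.35 (SE 0.45). Rgs4 differed by 0.65 (SE 0.60) on the surgical side, and by -0.19 (SE 0.20) with the neuron marker level as a covariate, with 134 to 344 TPM at 8 weeks against 20.05 to 212 TPM at 6 weeks; no RGS gene had higher surgical groups at 8 weeks that did not overlap, a pattern of 5.04% of all genes. The same covariate turned the surgical side values of Rgs7 to -0.52 (SE 0.18), of Rgs14 to 0.10 (SE 0.51), of Rgs18 to 0.04 (SE 0.82), of Rgs17 to -0.48 (SE 0.49) and of Rgs10 to -0.23 (SE 0.18). On the control side it turned those of Rgs14 to 0.70 (SE 0.66), of Rgs18 to 0.74 (SE 0.87), of Rgs19 to 0.19 (SE 0.24), of Rgs17 to -0.35 (SE 0.18) and of Rgs10 to -0.14 (SE 0.19). Each of these has the opposite sign to the value without the covariate.

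The other genes of the pathway were counted by list, and no member of any list passed in any of the 6 comparisons. The lists were 11 further RGS genes (9 tested), 5 partners of the R7 group (3 tested), G alpha subunits (17 rows, 16 tested), G beta and gamma subunits (15 rows, all tested between the sides), 17 effectors and 12 other regulators, all tested. Between the sides over both times the lists' medians ran from -0.10 for the G beta and gamma subunits, with 12 of 15 differences negative, to 0.10 for the other regulators. The smallest p values belonged to Adcy9, an adenylyl cyclase, at 0.32 (SE 0.13), Rgs11, another R7 gene, at -0.35 (SE 0.20), and Kcnj5, a G protein-gated potassium channel subunit, at -0.56 (SE 0.34).

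Partners of Rgs7 are given beside it. Gnb5, the G beta 5 subunit, stood at 7.56, 26.1 and 33.7 TPM in the surgical libraries of rats A, B and E, against 14.9, 9.43 and 33.9 TPM in their control libraries, lower on the surgical side in rat A and higher in rat B, as Rgs7 and the neuron markers were. Rgs7bp, which anchors the complex at the membrane, stood at 3.66, 23.4 and 41.2 TPM in these surgical libraries, against 11.6, 3.97 and 34.5 TPM in the control libraries. Over the whole list the mean log2 CPM was higher on the surgical side in rats D and G, by 0.22 and 0.17, where that of Rgs7 differed by -0.12 and -0.50. That mean weighs all 5 genes alike, of which only 3 passed the filter on low counts. The summed TPM of the list went the other way, as Rgs7 did. It was 105 TPM on the surgical and 118 TPM on the control side of rat D, and 120 and 146 TPM in rat G. On the control side, 8 minus 6 weeks, Gnb5 differed by 0.69 (SE 0.28; edgeR adjusted p = 0.15) and Rgs7bp by 1.19 (SE 0.53; edgeR adjusted p = 0.169). All 3 tested partners had positive differences there, with a median of 1.09 beside -0.06 over all genes.

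Among the other lists the lowest p values also came from the control side between the times. Gna14 and Gnaq, both G alpha subunits of the q class, differed by 1.58 (SE 0.31) and 1.49 (SE 0.33), Gnb4 by 1.31 (SE 0.27), and Plcb3, the phospholipase that G alpha q activates, by 1.57 (SE 0.34), with edgeR adjusted p from 0.0815 to 0.0856. Kcnj5 differed by 1.25 (SE 0.27) and Arrb1, which encodes an arrestin, by 1.18 (SE 0.27). In the opposite direction Gng5 differed by -1.52 (SE 0.36). Rgs1, an R4 gene of lymphocytes, differed by -3.70 (SE 0.75; edgeR adjusted p = 0.0815) and stood at 1.44 to 4.07 TPM at 8 weeks against 38.8, 19.8 and 4.57 TPM in the control libraries of rats A, B and E, the first 2 being those low in neuron and high in neutrophil markers. On the surgical side Rgs1 differed by -3.04 (SE 0.84; edgeR adjusted p = 0.671).

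The genes most like Rgs10 over the 14 libraries, of 13652 named genes with a mean of at least 1 TPM, were Cyb561d2 (Pearson r of log2 CPM 0.898), Chmp3 (0.889), Etfa (0.881), Higd1a (0.877) and Ppp1r2 (0.874). Their side differences over both times ran from -0.54 for Ppp1r2 to -0.26 for Chmp3, all smaller than that of Rgs10. Cyb561d2, Chmp3 and Ppp1r2 were lower on the surgical side in 7 of 7 rats, as were 0.746% of all genes tested. All were picked by likeness to Rgs10 over libraries that hold the side difference that chose it. Nothing is therefore read from their direction. By the within-rat differences of the 7 rats the most alike were Rbp2 (0.983), Ctc1 (0.955), RGD1562726 (0.943), LOC678760 (0.940) and Mstn (0.924). The libraries behind these coefficients share depth and cell makeup, the second set rests on 7 points in which rat A lies apart, and no gene was on both lists.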

How the data were processed

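Per the labels, RNA from dorsal root ganglia was sequenced from both sides of 7 rats; the molecule is given as polyA RNA, while the protocol names ribosomal depletion. Per the submitters' processing notes the tools were FastQC, Trim Galore, Salmon and DESeq2; versions and genome build are not given in the sources used here. The authors deposited estimated counts per gene (0 non-whole values) and TPM values. Library names and titles exchange the letters C and D; titles were used, which keeps every pair.

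Counts were fitted with edgeR 4.0.16 in R 4.3.3 (filterByExpr with a minimum count of 10, TMM, quasi-likelihood with robust estimation) over all genes, with Benjamini-Hochberg adjustment and a threshold of 0.05, two-sided. Comparisons of the sides kept the rat as a block, since both libraries come from 1 animal (6 residual degrees of freedom over both times, 5 at each time); those of the times used 1 side (5 degrees of freedom). The 7 rats are separate animals. Log2 CPM used a prior count of 2. Alternatives were DESeq2 1.42.0 and its size factors, other filters, limma 3.58.1 on log2(TPM + 1) and log2(TPM + 0.1), no block, a neuron marker covariate, and rats left out. The fits were tested on simulated counts. A marker list's level is the mean log2 CPM or summed TPM of its genes in the table; Klrb1a, Hba-a2 and Gngt2 are not used here. Named genes were the 10 members, the 2 of smallest p in each pathway list and the 5 most like Rgs10, and a choice among those is printed. Members, lists and rules were chosen with earlier results of these data known. Promoters were matched by symbol to RefSeq (GRCr8), 10 of 10.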

Additional observations from a re-analysis of the deposited data

Results flagged for a closer look

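In 30 groups of 4 or 7 values checked, 3 held a value farther from the others than Dixon's critical value allows, and chance alone does so in about 1 of 20 groups. The surgical minus control difference of Rgs10 in log2 CPM was -1.27 in rat A and between -0.72 and -0.35 in the other 6 rats. The neuron markers of that rat were also lower on the surgical side, at 6.32 in mean log2 CPM against 8.11 on the control side, and their part in the Rgs10 value was not tested. Rgs16 was at 6.85 TPM on the control side of rat H and at 2.34 to 2.77 TPM in the other control libraries at 8 weeks; that library also held 6946 TPM of skeletal muscle markers. The surgical minus control difference of Rgs19 was 1.46 in log2 CPM in rat C and between -0.44 and 0.28 in the other rats; the surgical library of rat C also had the highest skeletal muscle and platelet marker levels, 11.5 and 4.49 in mean log2 CPM.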

How the results depend on the processing

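Under the alternatives, 927 values of the 10 RGS genes moved by no more than the standard error of the main fitted difference and 93 by more. In the main fits these genes had passed none of the tests given here. The Rgs10 side difference over both times was between -0.70 and -0.54 in 17 alternatives, given as a description because this contrast chose the gene. Several side differences near 0 did change sign: over both times Rgs2 in TPM and without rat B, Rgs3 and Rgs7 without rat A, Rgs17 without rat A or C, Rgs19 without rat C, and Rgs2, Rgs16 and Rgs19 without rats B, C and H. Between the times, the neuron marker covariate turned the sign of Rgs10, Rgs14, Rgs17 and Rgs18 on both sides, of Rgs4 and Rgs7 on the surgical side and of Rgs19 on the control side.

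DESeq2 called 6 genes over both times, 44 at 6 weeks, 4 at 8 weeks, 5 for the difference between times, 8 between times on the surgical side and 3133 on the control side, where edgeR called 25. Rgs4 and Rgs2 were among the 3133, or 2 of the 10 RGS genes beside 19.2% of all genes. Without the replicate block 2 genes were called at 6 weeks, and the Rgs10 difference over both times was -0.63; that fit changed no other count between the sides. Between times limma on log2(TPM + 1) and log2(TPM + 0.1) called 3 and 4 genes on the surgical side and 8 and 13 on the control side. There the neuron marker covariate gave 46 calls and leaving out rats B, C and H gave 0. Leaving out 1 rat gave 0 to 6388 calls on the control side, the highest without rat E. The causes were not tested. Counts of RGS genes went down to 70 in a library (Rgs7) and 79 (Rgs16, Rgs18), so the lowest levels are the least precise.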
